A study of Homo sapiens with 6 samples.

Results

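Classical cadherins and the seven-pass cadherins CELSR1 and CELSR2 were followed across 6 RNA-seq libraries of SUM159 human breast cancer cells. The set was taken by gene identifier and holds 9 of the 58336 genes in the deposited count table: CDH1, CDH2, CDH3, CDH4, CDH6, CDH11, CDH13, CELSR1 and CELSR2. Classical cadherins are calcium-dependent adhesion proteins that bind cadherins on neighbouring cells and, through catenins, reach the actin cytoskeleton at adherens junctions. Carcinoma cells of a mesenchymal state typically carry N-cadherin (CDH2) in place of E-cadherin (CDH1). The seven-pass cadherins are adhesion receptors with a G-protein-coupled receptor fold and belong to the planar cell polarity pathway, which orients cells within a sheet.

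SUM159 is a triple-negative breast cancer line, and the study separated cells by their level of ITGB4, the beta-4 integrin subunit that pairs with alpha-6 integrin to bind laminin. The lung libraries came from single-cell-derived clones of ITGB4-low cells that carried tdTomato, were injected into mouse tail veins, and were sorted by that marker after the lungs were dissociated and kept in culture overnight. In 2 of them, 1 each of clone 1 and clone 3, LM2 cells, a lung-metastatic derivative of the MDA-MB-231 breast cancer line, had been injected as well; for clone 3 this rests on the library's title, since the treatment text names clone 1 alone. In 1 library of clone 1, the mice had received bleomycin, a lung-injuring drug, through the trachea. A single library came from cultured ITGB4-high cells, and 2 control libraries came from cultured ITGB4-low cells of clones 1 and 3. No ITGB4-low library from an untreated lung was analysed here, so the passage through the lung, the overnight culture and the trigger cannot be told apart. LM2 cells are human too, and the counts carry no mark that would separate their RNA from that of SUM159 cells.

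Library totals ran between 13607953 and 22222121 counts, so that 3 counts, taken as the detection floor, corresponded to 0.135 to 0.220 CPM, the counts scaled to a library of 1000000. ITGB4 had 6075 and 6911 counts in the LM2 lung libraries of clones 1 and 3, 4769 in the bleomycin lung library, and 5259 in the ITGB4-high library, against 374 and 536 in the controls of clones 1 and 3. The ITGB4-high culture thus stood above the ITGB4-low controls as labelled, and the lung libraries of the ITGB4-low clones lay on both sides of the ITGB4-high culture. Levels below are CPM after TMM normalisation, and tests are edgeR quasi-likelihood fits over all 6 libraries, with Benjamini-Hochberg adjustment over 15673 genes and a threshold of 0.05. The groups held 1 or 2 libraries, so each p-value reflects how far these particular libraries scatter, and that scatter may be technical. Set against control on their own, the single bleomycin and ITGB4-high libraries took their spread from the LM2 and control pairs. The libraries of the LM2 pair differed more than those of the control pair (chi-square per degree of freedom 80.1 against 8.72). In bulk RNA, fewer cells with a transcript and less transcript per cell cannot be told apart.

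CELSR1 (ENSG00000075275, chromosome 22, 46360834 to 46537170, minus strand, GRCh38 with GENCODE 29) was the only tested cadherin that edgeR called higher in lung against control. CDH3 too was above both controls in every lung library, but was tested only through its lung counts. It did not pass by edgeR and was among the 4 called by DESeq2. CELSR1, a core planar polarity cadherin that binds CELSR proteins on the adjacent cell, had 79.2 and 74.0 CPM in the LM2 lung libraries of clones 1 and 3 and 78.3 CPM in the bleomycin library. It had 76.5 CPM in ITGB4-high cells, against 26.4 and 22.2 CPM in the controls of clones 1 and 3. The 4 lung and ITGB4-high libraries lay close together, and none overlapped the controls. Lung libraries averaged 77.1 ± 2.79 CPM (SD, n = 3) and controls 24.3 ± 2.93 CPM (SD, n = 2), a 3.17-fold difference (log2 fold change 1.67, SE 0.14, edgeR adjusted p = 0.0209). Of all genes tested, 3.95% had a log2 fold change as high or higher. CELSR1 was the single cadherin of the 6 tested to pass, and 0.498% of all genes passed in either direction; by DESeq2, 4 of the 6 passed, beside 8.15% of all genes. The call was lost without the bleomycin library (adjusted p = 0.0998), without the clone 1 control (0.255) and without the clone 3 control (0.337).

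**Figure D1:**
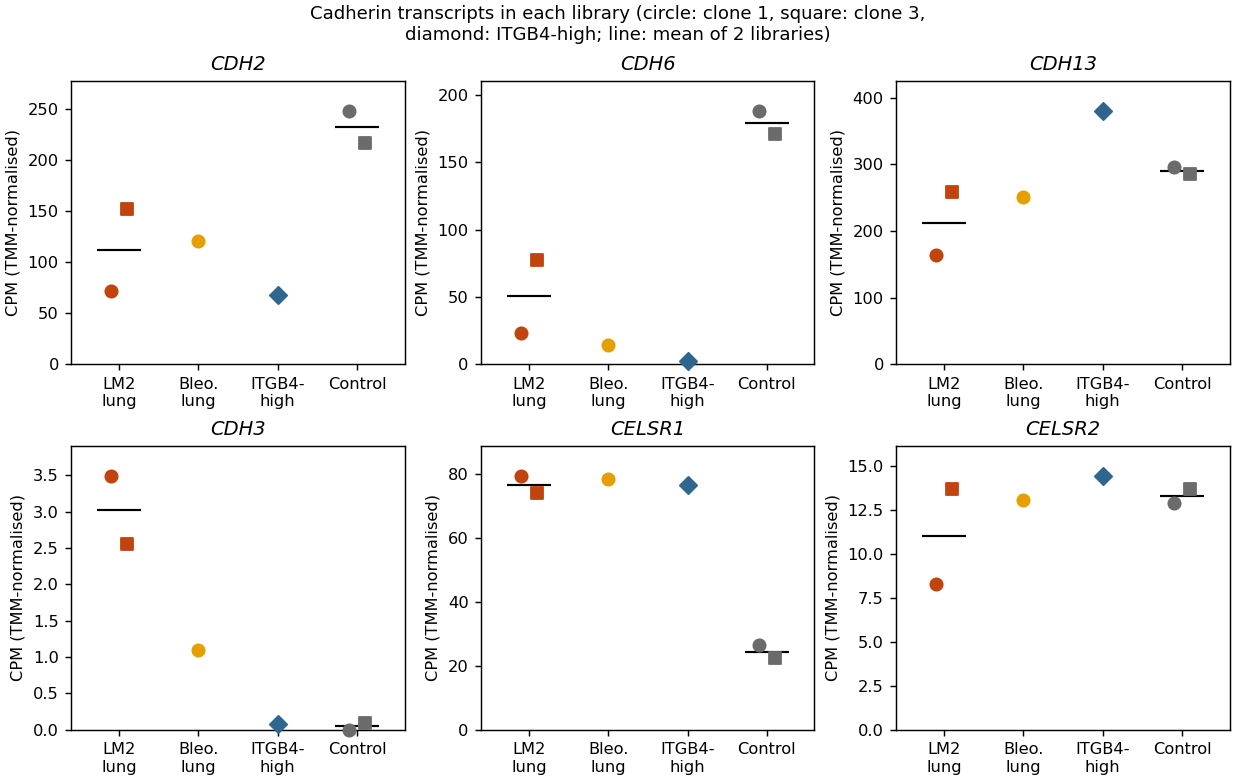
Transcript levels of the 6 tested cadherins in each library, in CPM on linear axes that start at 0; circles are clone 1, squares clone 3, diamonds the ITGB4-high culture, and black lines the mean of 2 libraries. CELSR1 lies between 74.0 and 79.2 CPM in the lung and ITGB4-high libraries and at 26.4 and 22.2 CPM in the controls, while CDH6 lies between 14.3 and 77.3 CPM in the lung libraries, against 2.48 CPM in the ITGB4-high culture and 188 and 171 CPM in the controls.

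CELSR2 (ENSG00000143126, chromosome 1, 109250019 to 109275750, plus strand), the paralogue of CELSR1, had overlapping levels in the groups. It had 8.29 and 13.7 CPM in the LM2 lung libraries of clones 1 and 3, 13.0 CPM in the bleomycin library and 14.4 CPM in ITGB4-high cells, against 12.9 and 13.7 CPM in the controls. The groups overlapped, and the log2 fold change of lung against control was -0.18 with a 95% interval of -0.80 to 0.43 (edgeR adjusted p = 0.703). The promoter of CELSR2 is shown because it was the only seven-pass cadherin with a RefSeq entry among the promoter sequences at hand. It spans chr1:109249289-109249588 on the plus strand (RefSeq, GRCh38.p14) and is printed 5′ to 3′, from 250 bases before the start to 50 after it. Capitals mark an E-box core (CANNTG), GC boxes (GGGCGG) and a CCAAT box, searched on both strands.
CELSR2: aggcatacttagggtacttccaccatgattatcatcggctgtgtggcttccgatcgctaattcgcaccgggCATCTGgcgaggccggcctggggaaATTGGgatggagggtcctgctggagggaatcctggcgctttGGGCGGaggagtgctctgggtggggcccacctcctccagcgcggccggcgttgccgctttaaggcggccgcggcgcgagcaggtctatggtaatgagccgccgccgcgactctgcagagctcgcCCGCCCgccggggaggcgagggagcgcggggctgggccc
This window held 1 E-box core, 2 GC boxes and 1 CCAAT box, with 68.0% GC. Of 35116 promoters of the same length, 68.7% held an E-box core, 45% a GC box and 34.6% a CCAAT box. CAGGTG, a form of the E-box core, was in 20.6% of promoters and not in these letters.

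CDH6 had a highest level 75.8 times its lowest over the 6 libraries, the widest ratio among the 5 tested cadherins with counts in every library. CDH6, or K-cadherin (ENSG00000113361, chromosome 5, 31193750 to 31329146, plus strand), is a type II classical cadherin of the developing kidney and neural crest. It had 23.6 and 77.3 CPM in the LM2 lung libraries of clones 1 and 3 and 14.3 CPM in the bleomycin library. ITGB4-high cells had 2.48 CPM, against 188 and 171 CPM in the controls. Every lung library lay below both controls and above the ITGB4-high library. The mean control level was 7.59 and 2.32 times that of the LM2 libraries of clones 1 and 3, 12.6 times that of the bleomycin library and 72.3 times that of the ITGB4-high library. By edgeR, CDH6 did not pass in the joined LM2 lungs, the bleomycin lung or ITGB4-high cells, each against control. These fits did not test an LM2 library on its own. By DESeq2, CDH6 was called lower in lung (DESeq2 adjusted p = 0.0078) and in LM2 lungs (0.0091) against control. There, 8.15% and 4.13% of all genes were called. Lung libraries averaged 38.4 ± 34.0 CPM (SD, n = 3) and controls 179 ± 12.1 CPM (SD, n = 2), with a log2 fold change of -2.22 (SE 0.67, edgeR adjusted p = 0.166). Of all genes tested, 1.61% had a log2 fold change as low or lower. The adjusted p was 0.0695 for ITGB4-high against control, with a log2 fold change of -6.17 (SE 0.98). Without the clone 3 LM2 library, lung against control passed (log2 fold change -3.24, adjusted p = 0.0111).

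CDH2, or N-cadherin (ENSG00000170558, chromosome 18, 27950966 to 28177446, minus strand), the classical cadherin of neural and mesenchymal cells, was at 71.4 and 152 CPM in the LM2 lung libraries of clones 1 and 3 and at 121 CPM in the bleomycin library. It was at 68.0 CPM in ITGB4-high cells, against 248 and 217 CPM in the controls. All lung libraries and the ITGB4-high library were below both controls. The log2 fold changes were -1.02 (SE 0.30, edgeR adjusted p = 0.162) for lung and -1.77 (adjusted p = 0.131) for ITGB4-high against control. Neither passed by edgeR. DESeq2 called CDH2 lower in lung against control (DESeq2 adjusted p = 0.0325), where 8.15% of all genes were called. Its upstream RefSeq promoter, chr18:28177081-28177380 on the minus strand (GRCh38.p14), is shown with the same motifs in capitals. It was chosen because CDH2 led the cadherins of this set in the control cells once scaled by exon length.
CDH2: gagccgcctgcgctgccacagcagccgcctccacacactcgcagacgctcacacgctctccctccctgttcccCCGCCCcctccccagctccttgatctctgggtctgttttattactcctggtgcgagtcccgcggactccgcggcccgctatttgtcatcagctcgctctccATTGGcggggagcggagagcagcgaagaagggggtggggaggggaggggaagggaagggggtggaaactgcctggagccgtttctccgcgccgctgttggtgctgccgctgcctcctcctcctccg
It held 1 GC box and 1 CCAAT box, with 67.0% GC and no match to CANNTG. A match or its absence describes these letters alone.

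CDH13, or T-cadherin (ENSG00000140945, chromosome 16, 82626803 to 83800640, plus strand), is held at the membrane by a lipid anchor and has no catenin-binding tail. It had 165 and 259 CPM in the LM2 lung libraries of clones 1 and 3, 250 CPM in the bleomycin library and 379 CPM in ITGB4-high cells, against 296 and 285 CPM in the controls. The lung libraries lay below both controls and the ITGB4-high library above them. The log2 fold changes were -0.37 (SE 0.21, edgeR adjusted p = 0.369) for lung and 0.39 (adjusted p = 0.457) for ITGB4-high against control, and neither passed.

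CDH3, or P-cadherin (ENSG00000062038, chromosome 16, 68636189 to 68722616, plus strand), a classical cadherin of basal epithelial cells such as myoepithelium, was a trace transcript. It had 45 and 40 counts in the LM2 lung libraries of clones 1 and 3, 17 in the bleomycin library and 1 in ITGB4-high cells, against 0 and 2 in the controls. These were 3.49, 2.56, 1.09 and 0.073 CPM in that order of libraries, against 0 and 0.092 CPM in the controls. Every lung library was above its floor, whereas the ITGB4-high and control libraries were at or under 2 counts. The pooled lung level was 41.8 times the pooled control level, with an exact 95% interval of 11.3 to 350 for counting error alone. The adjusted p of the edgeR fit was 0.0768, so the difference did not pass there. DESeq2 called CDH3 higher in lung against control (DESeq2 adjusted p = 0.00108), where 8.15% of all genes were called. CDH3 passed the filter on low counts through its lung libraries alone, so either test was open to it only because those were high.

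The other members were at the limit of detection. CDH1, or E-cadherin, the main adherens junction cadherin of epithelia, had 2 and 0 counts in the LM2 libraries of clones 1 and 3, 1 in the bleomycin library and 1 in ITGB4-high cells, against 2 and 0 in the controls. CDH4, or R-cadherin of the retina, had 0, 1, 5 and 0 counts in the same order, against 1 and 0 in the controls. CDH11, the cadherin of osteoblasts and other mesenchymal cells, had 3, 0, 0 and 0 counts, against 0 and 5 in the controls. None of the 3 passed the filter on low counts, and no difference in them was detectable at this depth.

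Compared over all genes, non-overlap with the controls was common. Among the tested cadherins, 3 had every lung library below both controls (CDH2, CDH6 and CDH13), 2 had every lung library above both (CDH3 and CELSR1) and CELSR2 overlapped. CDH3 was among the tested genes only through its lung counts. Of all genes tested, 25.4% were wholly below and 20.4% wholly above, so such an arrangement alone was frequent.

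Each group was also set against the controls on its own, with the same 2 control libraries in every comparison. CELSR1 had a log2 fold change of 1.66 (edgeR adjusted p = 0.0947) in LM2 lungs, 1.69 (0.0927) in the bleomycin lung and 1.65 (0.0574) in ITGB4-high cells, each against control. For LM2 lungs against control, 0 of 6 tested cadherins and 0.0319% of all genes passed, and 4 of the 6 had an unadjusted p under 0.05, beside 15.6% of all genes. For the bleomycin lung, 0 of 6 and 0.0255% passed, with 3 under 0.05 unadjusted beside 14.5% of all genes. CDH3 was among the 4 of LM2 lungs and the 3 of the bleomycin lung, and was tested only through its lung counts. For ITGB4-high cells, 0 of 6 and 0.0893% passed, with 3 under 0.05 unadjusted beside 24.5% of all genes. With clone as a block, CELSR1 passed in the single ITGB4-high library (edgeR adjusted p = 0.0374), which has no clone label and was coded midway between the clones; 2.32% of all genes passed in that fit. By DESeq2, 3 of 6 cadherins passed for LM2 lungs beside 4.13% of all genes, 2 for the bleomycin lung beside 3.7%, and 3 for ITGB4-high cells beside 9.68%. CDH3 was among the 3 of LM2 lungs.

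**Figure D2:**
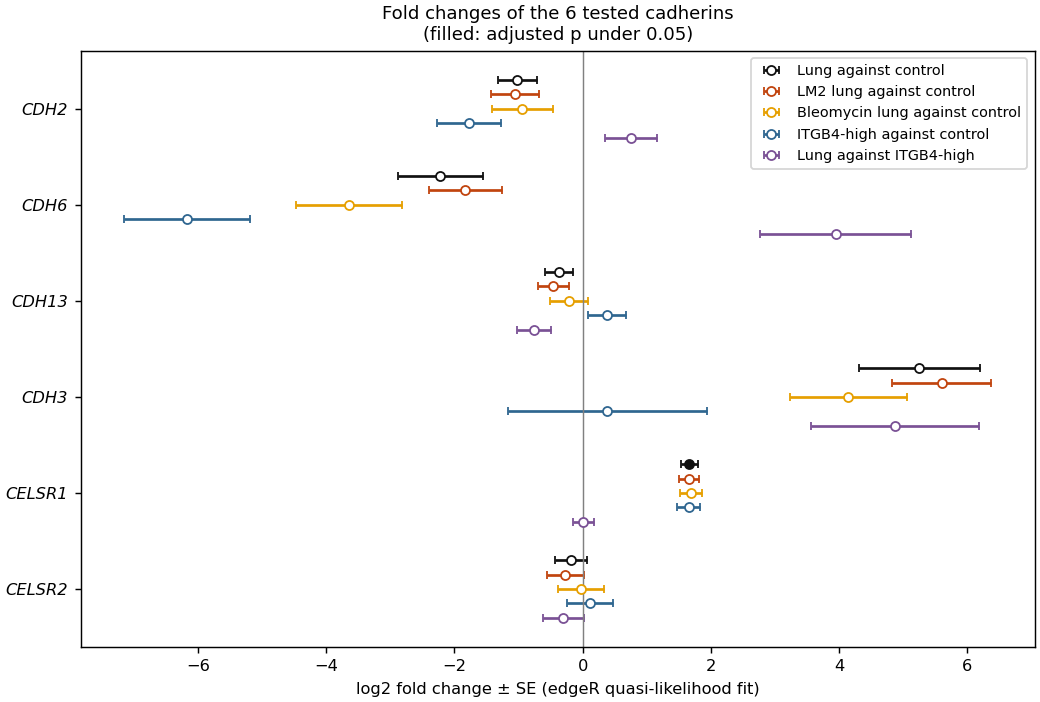
Log2 fold changes with their standard errors for the 6 tested cadherins in 5 comparisons, drawn as points and horizontal bars; filled points pass the adjusted threshold of 0.05. The one filled point is CELSR1 in lung against control at 1.67, and CDH6 runs from -6.17 for ITGB4-high against control to 3.95 for lung against ITGB4-high.

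Set against ITGB4-high cells, the lung libraries showed 0 of 6 tested cadherins past the edgeR threshold, beside 0.108% of all genes, with 3 cadherins under an unadjusted p of 0.05, beside 18.3% of all genes, and 1 called by DESeq2 beside 6.93% of all genes. CDH3, tested only through its lung counts, was among the 3 with an unadjusted p under 0.05. CELSR1 had a log2 fold change of 0.01 with a 95% interval of -0.39 to 0.41. CDH6 had 3.95 (SE 1.18, edgeR adjusted p = 0.178), and CDH2 had 0.75 (adjusted p = 0.381). CDH3 had 102 counts over the 3 lung libraries and 1 in the ITGB4-high library, a ratio of 31.7 with an exact 95% interval of 5.56 to 1262.

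Scaled by exon length, CDH2 and CDH13 made up most of the summed transcript of the 9 genes in every library. Other cadherin superfamily genes, such as FAT1 and CLSTN1, are outside this sum. CDH2 had 37.5% and 45.5% of the summed RPKM of the 9 genes in the LM2 lung libraries of clones 1 and 3, 44.1% in the bleomycin library and 25.0% in ITGB4-high cells, against 52.8% and 50.9% in the controls. CDH13 had 38.2%, 34.4%, 40.5% and 61.6% in the same order, against 27.9% and 29.7%. CDH13 thus ranked first in the clone 1 LM2 library and in ITGB4-high cells, and CDH2 in the other 4 libraries. CELSR1 had 16.1%, 8.58%, 11.1% and 10.9%, against 2.17% and 2.02% in the controls. CDH6 had 4.96%, 9.28%, 2.09% and 0.364%, against 16.0% and 16.1%. The summed level was 38.5 and 67.3 RPKM in the LM2 libraries, 55.3 in the bleomycin library and 55.0 in ITGB4-high cells, against 94.8 and 86.0 RPKM in the controls. The clone 1 LM2 library was the lowest of the 6.

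**Figure D3:**
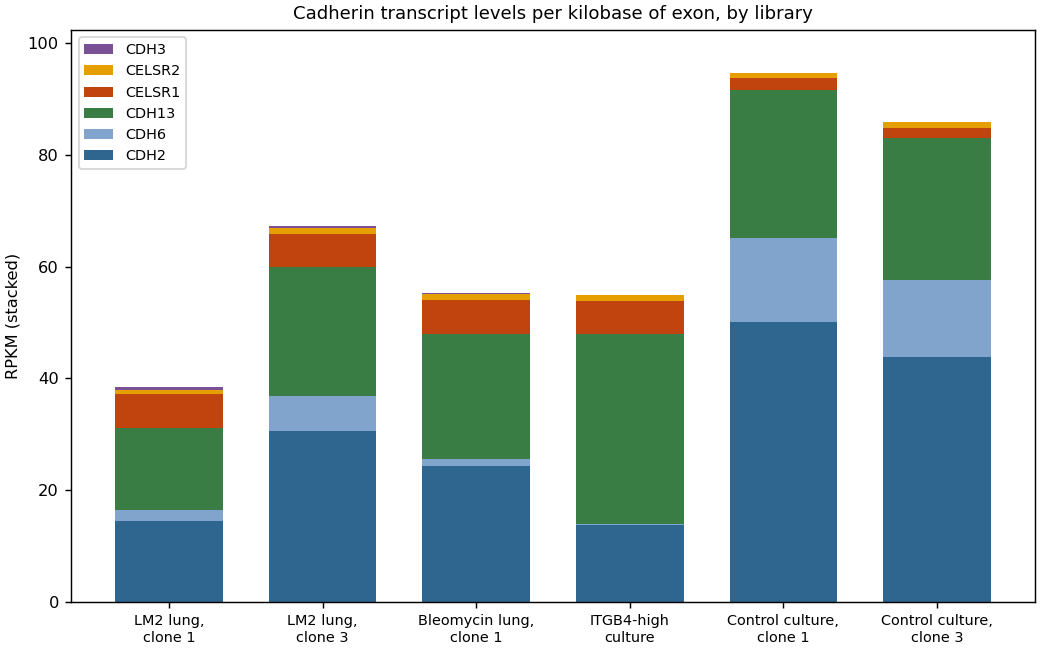
Stacked RPKM of 6 cadherins in each library, with one bar per library on an axis that starts at 0; CDH1, CDH4 and CDH11 are not drawn. The bars total 38.5 to 67.3 RPKM in the lung libraries, 55.0 in ITGB4-high cells and 94.8 and 86.0 in the controls, and the CELSR1 segment is wider in the lung and ITGB4-high bars.

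The genes around CDH6 and CELSR1 had median ratios near 0. The 27 tested genes within 5 Mb of CDH6 had a median log2 ratio to the control of the same clone of -0.10 and -0.04 in the LM2 libraries of clones 1 and 3 and -0.09 in the bleomycin library, while CDH6 itself had -2.99, -1.14 and -3.71. The 111 tested genes within 5 Mb of CELSR1 had -0.10, 0.01 and -0.00, while CELSR1 had 1.58, 1.73 and 1.56. These are descriptions of single libraries.

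The profile over the 6 libraries most like that of CDH6, by root mean square distance in log2 units after centring, belonged to CCBE1 (0.447), MYL9 (0.460) and ANGPT1 (0.477). Those nearest CELSR1 were RHOBTB3 (0.180), FAM83H (0.205) and PLAT (0.252). CDH3 was nearest to IQGAP2 (0.590), CDH13 to DMPK (0.0722) and CELSR2 to STX10 (0.0582).

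Adherens junction partners, the catenins, nectins and actin linkers that cadherins work with, were represented by 21 tested genes of 23, and 0 passed by edgeR in any of the 5 comparisons. By DESeq2, 3 of the 21 passed in lung against control (AFDN and NECTIN1 higher, CTNNA3 lower), where 8.15% of all genes did. CTNNA3 passed the filter on low counts through the controls alone. In the other comparisons 1 to 6 of the 21 partners passed by DESeq2, where 3.7% to 9.68% of all genes did. Their median log2 fold change for lung against control was -0.02, beside 0.003 for all genes tested, with 5 of the 21 under an unadjusted p of 0.05 beside 20.5% of all genes. The most abundant were CTNNA1, alpha-catenin, at 492 and 467 CPM in the LM2 libraries of clones 1 and 3, 466 in the bleomycin library and 345 in ITGB4-high cells, against 452 and 433 in the controls, then ACTN1, an actin cross-linker, and CTNNB1, beta-catenin. Beta-catenin had 308, 285, 322 and 297 CPM in the same order, against 355 and 423 in the controls. The ranges of alpha- and beta-catenin were narrow beside that of CDH6, but other partners varied more. Named after their values were seen, NECTIN1 ran from 12.5 to 183 CPM and PLEKHA7 from 0.073 to 4.79 CPM. The lowest PLEKHA7 level was 1 count, in ITGB4-high cells.

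Planar cell polarity genes, the partners of CELSR1, were represented by 13 tested of 15, with 1 lower and 0 higher by edgeR in lung against control, where 0.498% of all genes passed, and 0 in the other comparisons. By DESeq2, 4 of the 13 passed in lung against control (FZD6 and PRICKLE2 higher, CELSR3 and PRICKLE1 lower), beside 8.15% of all genes. In each other comparison 2 or 3 passed by DESeq2, where 3.7% to 9.68% of all genes did. CELSR3, the other seven-pass paralogue, had 37.0 and 31.3 CPM in the LM2 libraries of clones 1 and 3, 24.4 in the bleomycin library and 44.2 in ITGB4-high cells, against 59.5 and 50.3 in the controls (log2 fold change of lung against control -0.83, edgeR adjusted p = 0.123). Its lung libraries lay below both controls, where those of CELSR1 lay above them. PRICKLE1, a cytoplasmic polarity protein, fell to 0.39 and 0.13 CPM in the LM2 libraries of clones 1 and 3 and 0.38 CPM in the bleomycin library. It was at 0.29 CPM in ITGB4-high cells, against 7.41 and 6.25 CPM in the controls. In counts these were 5, 2, 6 and 4, against 107 and 136 in the controls. PRICKLE1 thus passed the filter on low counts through the controls alone, and its other counts were close to the floor of 3. The log2 fold change of lung against control was -4.49 (SE 0.44, edgeR adjusted p = 0.0274), and the call was lost without the bleomycin library (0.133), the clone 1 control (0.280) or the clone 3 control (0.337). Its paralogue PRICKLE2 had 10.6 and 4.86 CPM in the LM2 libraries of clones 1 and 3, 8.27 in the bleomycin library and 2.04 in ITGB4-high cells, against 0.76 and 0.97 in the controls, and did not pass (log2 fold change 3.17, adjusted p = 0.057). PRICKLE2 and CELSR3 were named after their values were seen. The list had a median log2 fold change of -0.26 beside 0.003 for all genes.

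**Figure D4:**
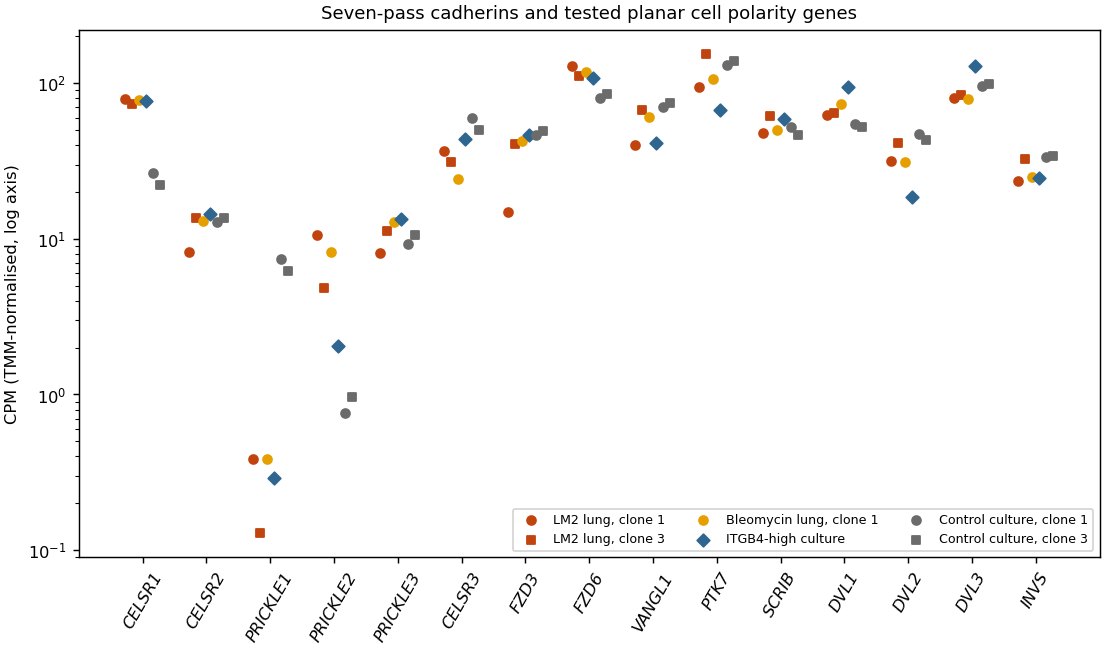
Levels of CELSR1, CELSR2 and 13 planar cell polarity genes in each library, in CPM on a log axis, with circles for clone 1, squares for clone 3 and diamonds for ITGB4-high cells. PRICKLE1 lies under 0.5 CPM in the lung and ITGB4-high libraries and at 7.41 and 6.25 CPM in the controls, whereas the PRICKLE2 points of the lung libraries are above the control points.

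Transcription factors known to repress CDH1 were all measured. By edgeR, 0 of 8 passed in any comparison, where 0.0255% to 0.498% of all genes did. In lung against control, 3 of the 8 were under an unadjusted p of 0.05, beside 20.5% of all genes. DESeq2 calls were not counted for this list. ZEB1, a zinc-finger repressor of CDH1, had 124 and 138 CPM in the LM2 libraries of clones 1 and 3, 164 in the bleomycin library and 113 in ITGB4-high cells, against 311 and 278 in the controls. Its log2 fold change for lung against control was -1.05 (edgeR adjusted p = 0.0588). ZEB2, its paralogue, had 81.8, 98.3, 111 and 42.6 CPM in the same order, against 64.0 and 71.0 in the controls, and TCF3 had 69.8, 68.5, 65.6 and 109, against 75.4 and 73.3. SNAI1, named after its values were seen, had 3.02, 2.43, 4.55 and 1.75 CPM, against 1.52 and 1.15. TWIST1, also named after its values were seen, had 3.41, 7.93, 7.82 and 2.34 CPM, against 10.9 and 11.2. ZEB1, TCF3 and TWIST1 were thus below both controls in every lung library, and ZEB2 and SNAI1 above both. SNAI2, TCF4 and KLF8 overlapped the controls. Of all genes tested, 25.4% were wholly below and 20.4% wholly above. The list's median was 0.34 beside 0.003 for all genes.

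Markers of other cells that a sort could carry were read beside these results. The counts are of human genes on hg38, whereas host lung cells would be mouse cells. How far mouse RNA would be counted under these genes was not tested, so a 0 is no measure of host cells. The summed CPM of 13 myeloid genes was 7.05, 5.88 and 13.8 in the lung libraries, against 4.99 and 4.41 in the controls, with AIF1, C1QA and C1QB at 0 in all 6. Among them, ADGRE1 had 25, 19 and 13 counts in the lung libraries, against 1 and 4 in the controls, and PTPRC had 30, 4 and 42, against 3 and 4. The 10 lung epithelial genes summed to 3.95, 4.60 and 3.97, against 6.86 and 6.02, with SFTPA1, SFTPC and SCGB1A1 at 0. The 9 endothelial genes summed to 4.49, 10.6 and 12.4, against 73.3 and 108, and CDH5, vascular endothelial cadherin, was at 0 in all 6. KDR made up 70.8 and 105 CPM of the control sums, while PECAM1 had 2.32, 3.64 and 9.42 CPM in the lung libraries, against 1.80 and 2.02 in the controls. The 8 fibroblast and smooth muscle genes summed to 486, 136 and 316, against 117 and 159 in the controls, and PDGFRA gave 449, 27.6 and 221 of the lung sums, against 32.6 and 35.2. The part of these cells in the cadherin values was not tested.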

How the data were processed

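RNA was read as gene counts in 6 libraries, grouped by the labels. The deposited values are raw counts per gene made by the authors, with STAR 2.7.1a and hg38 named in the submitters' processing notes; no label or header names the counting tool or says whether it used strand. Of 58336 identifiers, 58216 matched GENCODE 29, which gave names and exon lengths, and 120 did not. Counts were filtered with filterByExpr (minimum count 10), scaled by TMM and fitted with edgeR 4.0.16 in R 4.3.3. LM2, bleomycin and ITGB4-high groups were set against control in a 4-group fit; the lung groups were joined in a 3-class fit. DESeq2 1.42.0, RLE factors, no filter, clone as a block (the ITGB4-high library, which has no clone label, coded midway between the clones) and each library left out were the alternatives. The clone numbers in the titles pair lung and control libraries of 1 clone; the LM2 and control pairs' clone differences correlated at 0.00115 over 15673 genes. Named genes were the 9 members, ITGB4 and, per list, genes past the threshold or the most abundant; the text says where a further gene was named after its values were seen. Members and lists were chosen with earlier results of these data known. The fitting code was run on simulated counts with known fold changes. Those counts varied less between libraries than the real ones, whose common biological coefficient of variation was 0.243 to 0.244. That run therefore does not show how often the fits err on these data. The exact intervals of CDH3 count ratios and the floors cover counting error only, whereas intervals of log2 fold changes come from the edgeR fits.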

Additional observations from a re-analysis of the deposited data

Results flagged for a closer look

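CELSR2 had ratios of opposite sign in the 2 clones, that of clone 3 close to 0. The log2 ratio of LM2 lung to control was -0.628 in clone 1 and 0.002964 in clone 3, with 1 library each, and the difference between the clones was not tested.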

How the results depend on the processing

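The number of tested cadherins past the threshold depended on the processing. For lung against control it was 1 by edgeR, 3 with no filter (CDH2 lower, CDH3 and CELSR1 higher), 4 by DESeq2 (CDH6 lower as well), and 0 to 2 with single libraries left out. For LM2 lungs against control it was 0, then 3 with no filter, 3 by DESeq2 and 0 to 6, the 6 arising without the clone 3 LM2 library, where 40.8% of all genes were called. For the bleomycin lung it was 0, then 3, 2 and 0 to 4, the 4 arising without either LM2 library, where 28.1% (clone 1 left out) and 27.2% (clone 3) of all genes were called. For ITGB4-high cells it was 0, then 2, 3 and 0 to 4, the 4 arising in the same way with 42.0% and 41.6% of all genes called, and 1 with clone as a replicate block, in which this library, without a clone label, was coded midway between the clones. For lung against ITGB4-high it was 0, then 3, 1 and 0 to 2. The block changed no other count of cadherins. Genes called in all numbered 78 for lung against control, against 79 with RLE factors, 2152 with no filter, 1278 by DESeq2, 39 with the block, 4 without the bleomycin library and 0 without either control; without the LM2 libraries of clones 1 and 3 they numbered 393 and 1012. Leaving out a library left few residual degrees of freedom, and a lone library was then assumed to vary like the other groups. The cause of these shifts was not tested. Of 329 fold changes recomputed for the tested cadherins and PRICKLE1, 245 kept their direction and side of the threshold, 6 lost the call, 67 gained one and 11 changed sign. Several changed sign with single libraries left out, and are given as ranges. CELSR2 ran from -0.30 to 0.0084 in lung, -0.67 to 0.041 in LM2 lung and -0.051 to 0.012 in the bleomycin lung, each against control, and was 0.17 in the bleomycin lung with the block. CDH3 ran from -0.31 to 3.24 in ITGB4-high cells against control. In lung against ITGB4-high, CELSR1 ran from -0.0046 to 0.066 and was -0.0035 with no filter and -0.014 with the block, and PRICKLE1, 0.02 in the chosen fit, ran from -0.22 to 0.42 and was -0.12 with the block. At 3 counts, levels under 0.135 to 0.220 CPM could not be resolved.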

Other observations

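Of 43 other cadherin superfamily genes, 17 were tested and 0 passed in any of the 5 comparisons by edgeR, with 10 under an unadjusted p of 0.05 in lung against control, beside 20.5% of all genes. DESeq2 gave an adjusted p to 15 of the 17. Of these, 8 passed in lung against control (CDH18, CDH24, FAT4, PCDH7, PCDH9, PCDH17 and PCDH18 lower, FAT2 higher), beside 8.15% of all genes. That 8.15% is a share of all 15673 genes, including any without an adjusted p. The 17 had a median log2 fold change of 0.23 by edgeR in lung against control, beside 0.003 for all genes tested. The most abundant were FAT1, a giant protocadherin-like cadherin, CLSTN1, a synaptic calsyntenin, and PCDH9, a protocadherin. PCDH9 had 22.6 and 56.6 CPM in the LM2 libraries of clones 1 and 3, 14.0 in the bleomycin library and 10.8 in ITGB4-high cells, against 97.3 and 119 in the controls (log2 fold change of lung against control -1.80, adjusted p = 0.168). FAT4, CDH18, PCDH18, FAT2 and CLSTN3 were chosen after their values were seen. FAT4 had 14.6, 38.9, 14.5 and 4.82 CPM in the same order, against 57.1 and 61.3 in the controls. CDH18 had 5.27, 11.8, 4.74 and 1.09, against 22.0 and 30.3, and PCDH18 had 0.93, 6.84, 3.08 and 0.66, against 19.5 and 28.8. All lung libraries lay below both controls in PCDH9, FAT4, CDH18 and PCDH18, and also in CDH24, PCDH7, PCDH17 and CLSTN1. They lay above both in CDH19, FAT2 and CLSTN3, and the rest of the tested genes of this list overlapped. Of all genes tested, 25.4% were wholly below and 20.4% wholly above. FAT2 had 3.25, 3.52, 0.71 and 1.24 CPM, against 0 and 0.092 in the controls, and CLSTN3 had 26.3, 25.3, 31.3 and 19.6, against 19.1 and 20.2. FAT2 had 0 and 2 counts in the controls and passed the filter on low counts through the other libraries.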
